A study of Mus musculus with 8 samples.

Results

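Collagens, laminins, nidogen and perlecan of the basement membrane were followed in mouse heart ventricle as 10 genes, Col4a1, Col4a2, Col15a1, Col18a1, Lama2, Lama4, Lamb2, Lamc1, Nid1 and Hspg2. They were chosen by name out of 35275 genes with a deposited value, with earlier results of these data known. Each matched 1 row through its Ensembl identifier. PolyA RNA of minced ventricles was sequenced from 4 samples labelled WT and 4 labelled RBX2iCKO, all 8 treated with tamoxifen. In RBX2iCKO, Rbx2 (gene Rnf7), the RING subunit of a cullin 5 ubiquitin ligase, was deleted in the adult heart by Mer-Cre-Mer, a Cre made responsive to tamoxifen by estrogen receptor domains. The αMHC promoter restricts this Cre to cardiomyocytes, so the other cells of the ventricle are not its target. The labels give no age, do not say whether WT mice carried Mer-Cre-Mer, and do not state that the libraries came from separate mice. The spread behind each p-value is therefore that of these libraries and may be technical. The labels name cardiomyocytes as the cell type, but the libraries hold the whole ventricle: beside Myh6 at 5309.8 FPKM ± 391 in WT (SD, n = 4), the fibroblast marker Dcn stood at 258 FPKM ± 49.3 and the endothelial marker Pecam1 at 44.0 FPKM ± 8.49.

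Basement membranes are thin sheets of matrix that lie beneath endothelium and wrap each cardiomyocyte, pericyte and smooth muscle cell. Laminins, trimers of an alpha, a beta and a gamma chain, bind integrins and dystroglycan at the cell surface and form a network of their own. Collagen IV forms the other network, nidogen and the heparan sulfate proteoglycan perlecan link them, and collagens XV and XVIII lie at the border with the fibrillar matrix.

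The collagen IV genes are arranged as head-to-head pairs, and the promoter windows of Col4a1 and Col4a2 are shown because these genes share theirs and moved together in the libraries. Sequences are from RefSeq on GRCm38.p6, each read 5′ to 3′ on its gene's strand, from before the annotated start into the first bases of the transcript. The Col4a1 window is chr8:11312777-11313076 on the minus strand and the Col4a2 window is chr8:11312555-11312854 on the plus strand. Capitals mark the 78 bases that both windows hold, which are reverse complements of each other.
Col4a1: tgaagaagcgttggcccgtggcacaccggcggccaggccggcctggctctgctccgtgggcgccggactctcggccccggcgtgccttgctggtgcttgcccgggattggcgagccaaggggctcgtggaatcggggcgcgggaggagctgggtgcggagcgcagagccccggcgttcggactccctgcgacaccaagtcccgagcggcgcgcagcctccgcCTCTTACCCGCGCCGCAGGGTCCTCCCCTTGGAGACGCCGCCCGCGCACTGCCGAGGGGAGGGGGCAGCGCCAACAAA
Col4a2: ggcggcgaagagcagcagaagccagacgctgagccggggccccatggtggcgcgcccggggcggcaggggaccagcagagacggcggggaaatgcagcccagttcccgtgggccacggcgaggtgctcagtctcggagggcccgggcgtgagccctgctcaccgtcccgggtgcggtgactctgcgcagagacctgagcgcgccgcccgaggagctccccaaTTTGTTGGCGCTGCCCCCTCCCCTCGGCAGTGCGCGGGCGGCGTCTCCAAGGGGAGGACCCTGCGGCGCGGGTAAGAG
The gene annotations themselves (GENCODE M21 on mm10) overlap by 22 bases. The window of Col4a4, chr1:82586800-82587099 on the minus strand, is shown because 71 bases separate the annotated starts of Col4a4 and Col4a3. Here capitals mark the 179 bases at and beyond the annotated start of Col4a3.
Col4a4: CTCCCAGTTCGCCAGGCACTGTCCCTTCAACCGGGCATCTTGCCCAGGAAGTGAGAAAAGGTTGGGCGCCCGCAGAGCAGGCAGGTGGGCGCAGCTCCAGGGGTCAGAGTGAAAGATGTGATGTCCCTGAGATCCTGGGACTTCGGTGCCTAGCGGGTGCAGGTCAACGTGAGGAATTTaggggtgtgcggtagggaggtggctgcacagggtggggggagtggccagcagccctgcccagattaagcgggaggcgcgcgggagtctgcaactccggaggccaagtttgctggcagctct
The third pair, Col4a6 and Col4a5 on the X chromosome, lies farther apart, with 1308 bases between the genes.

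Of the 10 genes, 8 had a RefSeq promoter window, 9 windows in all since Col18a1 had 2; Lama4 and Lamc1 were not matched. The windows of Col4a1 and Col4a2 were 74.0% and 73.7% G and C, those of Hspg2 and Nid1 70.3% and 64.7%, and that of Lamb2 44.0%, against a median of 52.7% over 32851 windows of the same length. Both strands were searched for 5 sets of letters. The GC box GGGCGG was in 6 of the 9 windows and in 35.7% of all windows, and CCAAT was in 4 of 9 and in 37.4%. CCCTCCCC, the CTC box known from the collagen IV promoter, was in 3 of 9, those of Col4a1, Col4a2 and Nid1, and in 10.8% of all windows. In the collagen IV pair this match lies within the shared stretch shown above, so the same site is counted in both windows. The only GC box of the Col4a1 window also lies there and is likewise counted in both. TATAAA and TGANTCA, the AP-1 letters, were in none of the 9, and in 13.6% and 7.81% of all windows. A match of letters is a description of the window and does not show binding.

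Basement membrane transcripts were more abundant in the RBX2iCKO ventricles. All 10 genes rose as deposited, from 1.32-fold for Lamb2 to 3.45-fold for Col15a1, and in each of them the 4 RBX2iCKO values lay above the 4 WT values. Such calls were common: limma called 33.5% of the 13050 genes tested higher and 3.52% lower, and in 34.0% the RBX2iCKO values lay above all WT values. The higher count, 4374 genes, fell to 2897 without WT replicate 2. The median log2 difference of the 10 genes was 0.91, against 0.21 over all genes tested. After median-of-ratios scaling, which moved the median of all genes to 0.02, 8 of the 10 remained higher while 8.78% of all genes were called higher and 10.9% lower, and the median of the 10 was 0.69. Lama4 and Lamb2 lost their call there.

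**Figure D1:**
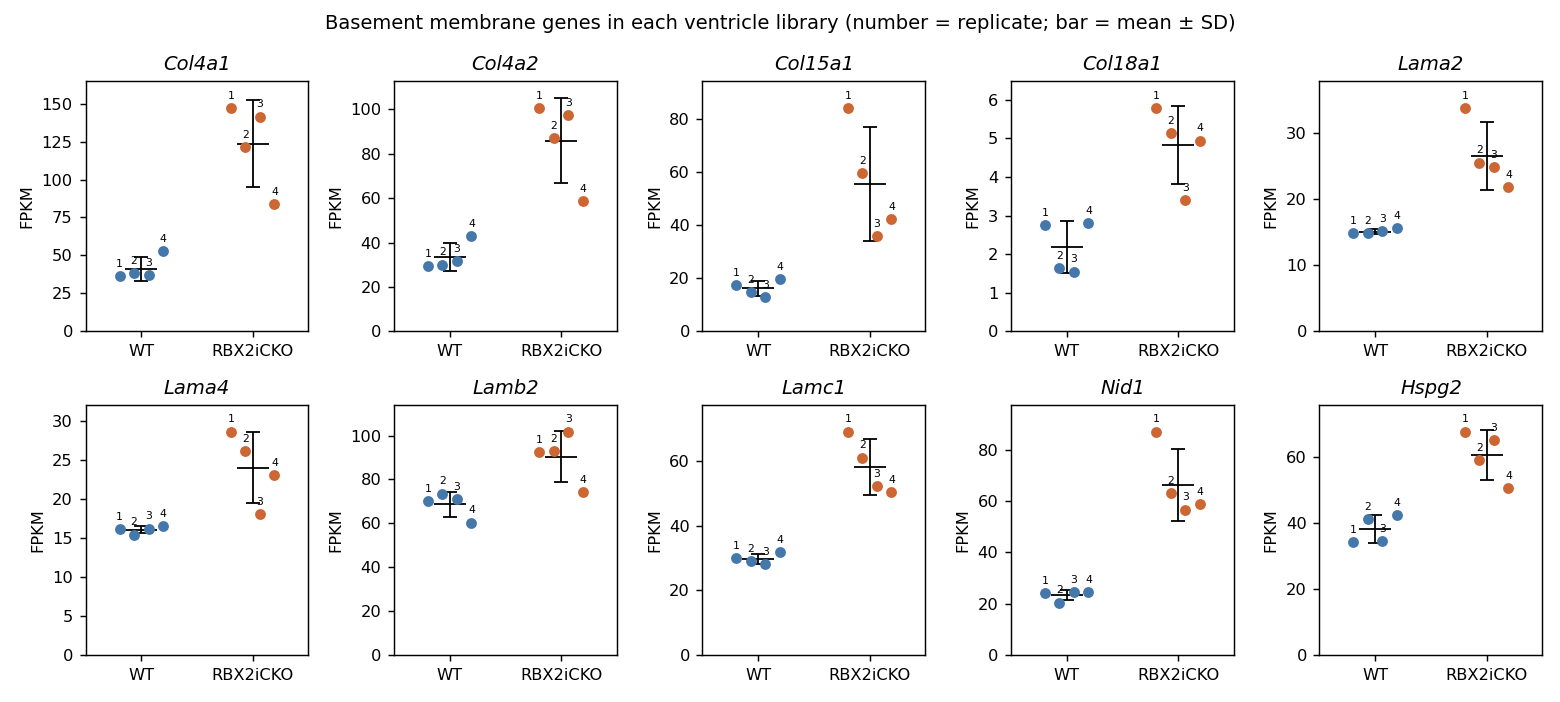
FPKM (vertical axis, from 0) of each of the 10 genes in the 4 WT and the 4 RBX2iCKO libraries; points are libraries numbered by replicate, and bars are the mean ± SD. In each panel all RBX2iCKO points lie above all WT points, with the narrowest gap for Lamb2, between 73.5 and 74.2 FPKM, and Lama4, between 16.5 and 18.1 FPKM.

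FPKM divide the fragments of a gene by its length in kilobases and by the fragments counted in the library. The denominators held 18513924 to 23043686 fragments per library, and the 10 genes had from 197 fragments (Col18a1, WT replicate 3) to 19362 (Hspg2, RBX2iCKO replicate 2). Their summed share of counted fragments was 0.212% ± 0.0141 for WT against 0.430% ± 0.0705 for RBX2iCKO (SD, n = 4 each), with ranges of 0.202% to 0.232% and 0.340% to 0.513%. Mitochondrial-encoded transcripts took 23.8% ± 1.04 and 16.9% ± 2.06, a fall that by itself moves other FPKM upward in RBX2iCKO. With these transcripts removed, 2079 genes were called higher and 711 lower, against 4374 and 459 as deposited. What part of the general rise the fall makes up was not tested. Rnf7 itself fell, with 37.3 FPKM ± 2.38 in WT and 7.15 FPKM ± 0.280 in the knockout (SD, n = 4 each), with no overlap, as the labels state (log2 difference -2.23, limma adjusted p = 5.8e-07). Esr1, whose ligand-binding domain is part of Mer-Cre-Mer, averaged 0.757 FPKM in WT and 331 FPKM in RBX2iCKO, and effects of the transgene and of Rbx2 loss cannot be told apart.

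The alpha-1 and alpha-2 chains of collagen IV, the chains of the ubiquitous collagen IV network, were among the genes with the largest increases. Col4a1 (ENSMUSG00000031502, mm10 chromosome 8, 11198423 to 11312826, minus strand) was at 36.4, 38.2, 37.1 and 52.8 FPKM in WT replicates 1 to 4 and at 147, 122, 142 and 83.7 FPKM in RBX2iCKO replicates 1 to 4. WT replicate 4 was the highest WT library and RBX2iCKO replicate 4 the lowest knockout library, and the groups did not overlap. The mean rose 3.0-fold, with 41.1 FPKM ± 7.81 in WT and 124 FPKM ± 28.7 in the knockout (SD, n = 4 each), a log2 difference of 1.55 (SE 0.18, limma adjusted p = 0.00130), and of 1.30 after scaling (adjusted p = 0.00229). Its log2 difference was above that of 99.4% of the genes tested.

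Col4a2 (ENSMUSG00000031503, chromosome 8, 11312805 to 11449287, plus strand) read 29.4, 30.1, 31.5 and 42.9 FPKM in the WT libraries and 101, 87.2, 97.5 and 58.5 FPKM in the knockout libraries. The same libraries, WT replicate 4 and RBX2iCKO replicate 4, lay closest to the other group, and the groups did not overlap. It rose 2.57-fold (log2 1.32, SE 0.18, limma adjusted p = 0.00201; 1.07 after scaling, adjusted p = 0.00382).

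Col4a1 exceeded Col4a2 in each library, and their ratio was higher in each RBX2iCKO library than in any WT library. The Col4a1/Col4a2 ratio of FPKM, which no library scaling can move, was 1.24, 1.27, 1.18 and 1.23 in WT and 1.46, 1.40, 1.45 and 1.43 in RBX2iCKO. These groups did not overlap, and the spread within each was small, 1.23 ± 0.0385 against 1.43 ± 0.0298 (SD, n = 4 each; log2 difference 0.22, SE 0.03; two-sided exact permutation p = 0.0286, the smallest that 70 assignments allow; adjusted p = 0.0952 over 10 ratios). In the protein the trimer holds more alpha-1 than alpha-2 chain, and transcripts do not show its amount.

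The alpha-3 to alpha-6 chains, whose networks are best known from kidney, eye and other specialised membranes, were far less abundant. Col4a3 was at 0.537, 0.400, 0.401 and 0.508 FPKM in WT and at 2.75, 2.24, 1.64 and 1.99 FPKM in RBX2iCKO, and Col4a4, its head-to-head neighbour, at 1.21, 0.8286, 0.891 and 1.31 FPKM and at 4.33, 3.47, 2.33 and 2.99 FPKM. In both genes WT replicates 1 and 4 were the higher WT libraries and RBX2iCKO replicate 3 the lowest knockout library, with no overlap of groups. Col4a4 rose 3.10-fold (log2 1.04, SE 0.15, limma adjusted p = 0.00228, and 0.00393 after scaling). Col4a3, with means of 0.461 FPKM ± 0.0713 in WT and 2.15 FPKM ± 0.466 in the knockout (SD, n = 4 each), reached the filter of a mean of 0.5 FPKM only through RBX2iCKO, so no test is given for it.

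Col4a5 rose 2.01-fold and averaged 6.51 FPKM ± 0.690 in WT and 13.1 FPKM ± 1.76 in the knockout (SD, n = 4 each; limma adjusted p = 0.00126, and 0.00255 after scaling). Col4a6, at 0.477 FPKM ± 0.183 and 1.01 FPKM ± 0.381, likewise reached the filter only through RBX2iCKO. The Col4a5/Col4a1 ratio was 0.162 ± 0.0305 in WT against 0.111 ± 0.0292 in RBX2iCKO, with overlapping groups (SD, n = 4 each; exact permutation p = 0.0857, adjusted 0.107).

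Of the 4 laminin chains among the 10 genes, gamma-1, which nearly all laminin trimers of muscle and vessels hold, had the largest fold change. Lamc1 (ENSMUSG00000026478, chromosome 1, 153218922 to 153332786, minus strand) was at 30.1, 29.1, 28.1 and 31.8 FPKM in WT and at 69.2, 61.1, 52.4 and 50.3 FPKM in RBX2iCKO. WT libraries lay within a narrow band, far below the lowest knockout library. It rose 1.96-fold (log2 0.93, SE 0.10, limma adjusted p = 0.000941; 0.69 after scaling, adjusted p = 0.00261).

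Lama2 (ENSMUSG00000019899, chromosome 10, 26980036 to 27619758, minus strand) encodes the alpha-2 chain of the laminin around muscle fibres, whose loss causes a muscular dystrophy. It was at 14.8, 14.8, 15.1 and 15.5 FPKM in WT and at 33.7, 25.5, 24.8 and 21.8 FPKM in RBX2iCKO. The WT libraries were nearly level, and RBX2iCKO replicate 1 stood highest. The mean rose 1.76-fold (log2 0.76, SE 0.12, limma adjusted p = 0.00287; 0.51 after scaling, adjusted p = 0.0140).

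Lama4 (ENSMUSG00000019846, chromosome 10, 38965515 to 39110188, plus strand), the alpha-4 chain typical of vessel endothelium, had a smaller fold change. Its values were 16.1, 15.4, 16.2 and 16.5 FPKM in WT and 28.6, 26.1, 18.1 and 23.0 FPKM in RBX2iCKO. RBX2iCKO replicate 3 lay close to the WT libraries, without reaching them. The 1.49-fold rise as deposited (log2 0.53, SE 0.12, limma adjusted p = 0.0117) did not pass after scaling (0.29, adjusted p = 0.120), nor among the scaled fits that left out 1 library, except without RBX2iCKO replicate 3 (0.41, adjusted p = 0.00765).

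Lamb2 (ENSMUSG00000052911, chromosome 9, 108479736 to 108490530, plus strand), the beta-2 chain of muscle and synaptic laminins, was the most abundant of the 10 genes in WT and changed least. It read 69.9, 73.5, 70.9 and 60.3 FPKM in WT and 92.3, 93.0, 102 and 74.2 FPKM in RBX2iCKO. In contrast to collagen IV, WT replicate 4 was here the lowest WT library, and RBX2iCKO replicate 4 came close to the WT values. The 1.32-fold rise (log2 0.39, SE 0.10, limma adjusted p = 0.0203) failed without WT replicate 4 (0.33, adjusted p = 0.0524) and without RBX2iCKO replicate 2 (0.37, adjusted p = 0.0511). After scaling the difference was 0.13 (95% interval -0.12 to 0.38, adjusted p = 0.432), against a median of 0.02 over all genes. As deposited, its log2 difference was above that of 76.1% of the genes tested.

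The alternative chains behaved variously. Lamb1, the other common beta chain, rose 1.59-fold as deposited, averaging 19.9 FPKM ± 1.56 in WT and 31.6 FPKM ± 6.33 in the knockout (SD, n = 4 each; limma adjusted p = 0.00716), a call that scaling ended (adjusted p = 0.0576). Lama5, the other alpha chain of endothelium, did not pass (limma adjusted p = 0.446): RBX2iCKO replicate 3 stood at 54.2 FPKM while the other knockout libraries ran from 16.6 to 19.99 FPKM and WT from 16.3 to 21.5 FPKM. Lamb3, a chain of epithelial laminin, was the 1 gene of its list that fell, 1.76-fold, with means of 3.80 FPKM ± 0.630 in WT and 2.16 FPKM ± 0.569 in the knockout (limma adjusted p = 0.0134, and 0.00607 after scaling), and is named for that, after its values were seen.

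Ratios between laminin chains overlapped between the groups. Lama4/Lama2 was 1.07 ± 0.0212 in WT against 0.914 ± 0.154 in RBX2iCKO (SD, n = 4 each; two-sided exact permutation p = 0.0571, adjusted 0.0952), and Lamb1/Lamb2 was 0.292 ± 0.0417 and 0.353 ± 0.0735 (exact permutation p = 0.200, adjusted 0.222). RBX2iCKO replicates 1 and 3 had the low Lama4/Lama2 ratios, at 0.848 and 0.727, and replicates 2 and 4 were at 1.02 and 1.055, against 1.039 to 1.09 in WT. Lama5/Lama4 was 0.699 to 0.739 in 3 knockout libraries and 3.01 in replicate 3, against 1.01 to 1.40 in WT (log2 difference -0.24, exact permutation p = 0.686, and -0.75 without that library).

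Nidogen-1, which bridges laminin gamma-1 and collagen IV, had the smallest p-value of the 10 genes. Nid1 (ENSMUSG00000005397, chromosome 13, 13437551 to 13512269, plus strand) was at 24.0, 20.4, 24.4 and 24.5 FPKM in WT and at 87.0, 62.9, 56.6 and 58.6 FPKM in RBX2iCKO. RBX2iCKO replicate 1 stood highest, as it did for each of the 10 genes but Lamb2, and every knockout library was above every WT library. The rise was 2.84-fold (log2 1.45, SE 0.13, limma adjusted p = 0.000515; 1.2 after scaling, adjusted p = 0.000776).

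Relative to its laminin partner Lamc1, Nid1 was higher in each RBX2iCKO library than in any WT library. This did not pass the adjustment over 10 ratios, which can be passed only if many of them reach the smallest possible p. The Nid1/Lamc1 ratio was 0.800, 0.699, 0.868 and 0.769 in WT and 1.26, 1.03, 1.08 and 1.17 in RBX2iCKO, without overlap (log2 difference 0.53, SE 0.09; exact permutation p = 0.0286, adjusted 0.0952). Nid2, the paralogue with overlapping function, was scarcer and rose 2.01-fold, averaging 3.56 FPKM ± 0.531 in WT and 7.15 FPKM ± 1.17 in the knockout (SD, n = 4 each; limma adjusted p = 0.00268, and 0.00859 after scaling). The Nid2/Nid1 ratio was 0.153 ± 0.0218 in WT against 0.110 ± 0.0188 in RBX2iCKO (exact permutation p = 0.0571, adjusted 0.0952), with overlapping groups.

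Perlecan, a large heparan sulfate proteoglycan that stores growth factors, rose moderately. Hspg2 (ENSMUSG00000028763, chromosome 4, 137468769 to 137570630, plus strand) was at 34.3, 41.2, 34.5 and 42.3 FPKM in WT and at 67.8, 59.2, 65.2 and 50.7 FPKM in RBX2iCKO. WT replicates 2 and 4 were the higher WT libraries and RBX2iCKO replicate 4 the lowest knockout library. The rise was 1.59-fold (log2 0.66, SE 0.11, limma adjusted p = 0.00352; 0.41 after scaling, adjusted p = 0.0348). After scaling, the call held in 2 of the 8 fits that left out 1 library, those without WT replicate 2 and RBX2iCKO replicate 4, with adjusted p from 0.0248 to 0.0895 over the 8.

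Relative to Lamc1, the mean of Hspg2 was lower and that of Col4a1 higher in RBX2iCKO, neither past the adjusted threshold. Hspg2/Lamc1 was 1.28 ± 0.119 in WT against 1.05 ± 0.131 in RBX2iCKO (SD, n = 4 each; log2 difference -0.29, SE 0.11; exact permutation p = 0.0857, adjusted 0.107), and Col4a1/Lamc1 was 1.37 ± 0.195 and 2.12 ± 0.434 (log2 difference 0.61, SE 0.17; exact permutation p = 0.0286, adjusted 0.0952). The Col4a1/Lamc1 groups did not overlap, but only just, since WT replicate 4 was at 1.658 and RBX2iCKO replicate 4 at 1.663. None of the 10 ratios passed an adjusted threshold of 0.05, and 3 were at the smallest exact p that 4 against 4 libraries can give. With only these 3 at that floor the adjustment could not be passed, so it leaves single ratios undecided.

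**Figure D2:**
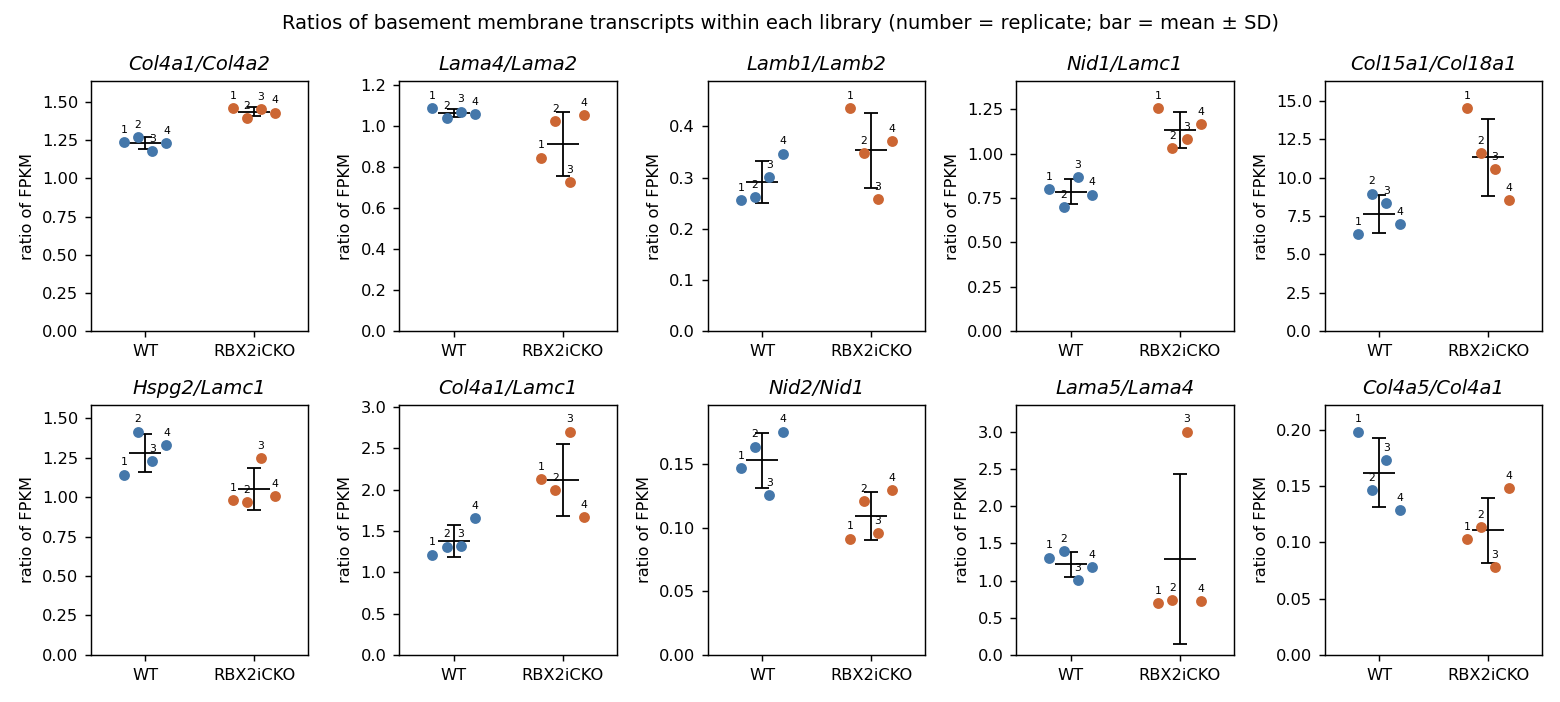
Ratio of FPKM between 2 basement membrane transcripts within each library (vertical axis, from 0), for 10 pairs; points are libraries numbered by replicate, and bars are the mean ± SD. The groups are separate for Col4a1/Col4a2, Nid1/Lamc1 and Col4a1/Lamc1, and in the Lama5/Lama4 panel RBX2iCKO replicate 3 stands alone at 3.01.

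Collagens XV and XVIII, which carry heparan or chondroitin sulfate chains and release anti-angiogenic fragments from their C-terminal ends, differed in level, Col15a1 being the higher in each library. Col15a1 (ENSMUSG00000028339, chromosome 4, 47208161 to 47313167, plus strand) was at 17.3, 14.7, 12.9 and 19.6 FPKM in WT and at 84.2, 59.6, 35.9 and 42.3 FPKM in RBX2iCKO. The knockout libraries were widely spread, with replicate 1 highest and replicate 3 lowest, yet all lay above WT. The rise was 3.45-fold (log2 1.66, SE 0.24, limma adjusted p = 0.00245; 1.42 after scaling, adjusted p = 0.00445).

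Col18a1 (ENSMUSG00000001435, chromosome 10, 77052178 to 77166548, minus strand), the source of endostatin, was the least abundant of the 10. It was at 2.74, 1.64, 1.55 and 2.81 FPKM in WT and at 5.80, 5.14, 3.40 and 4.95 FPKM in RBX2iCKO. WT replicates 1 and 4 were the higher WT libraries, and RBX2iCKO replicate 3 came nearest to them. The rise was 2.21-fold (log2 0.88, SE 0.18, limma adjusted p = 0.00707; 0.69 after scaling, adjusted p = 0.0214), and after scaling 3 of 8 fits that left out 1 library kept the call, those without WT replicates 1 or 4 and RBX2iCKO replicate 3, with adjusted p from 0.00728 to 0.0636 over the 8.

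Col15a1/Col18a1 was 7.64 ± 1.22 in WT against 11.3 ± 2.49 in RBX2iCKO, with overlapping groups (SD, n = 4 each; exact permutation p = 0.0571, adjusted 0.0952). Col18a1 overlaps Slc19a1 on the opposite strand by 8825 bases, and the strand setting of the counting is not given in the sources used here. Slc19a1 averaged 1.31 FPKM in WT and 1.24 FPKM in RBX2iCKO.

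**Figure D3:**
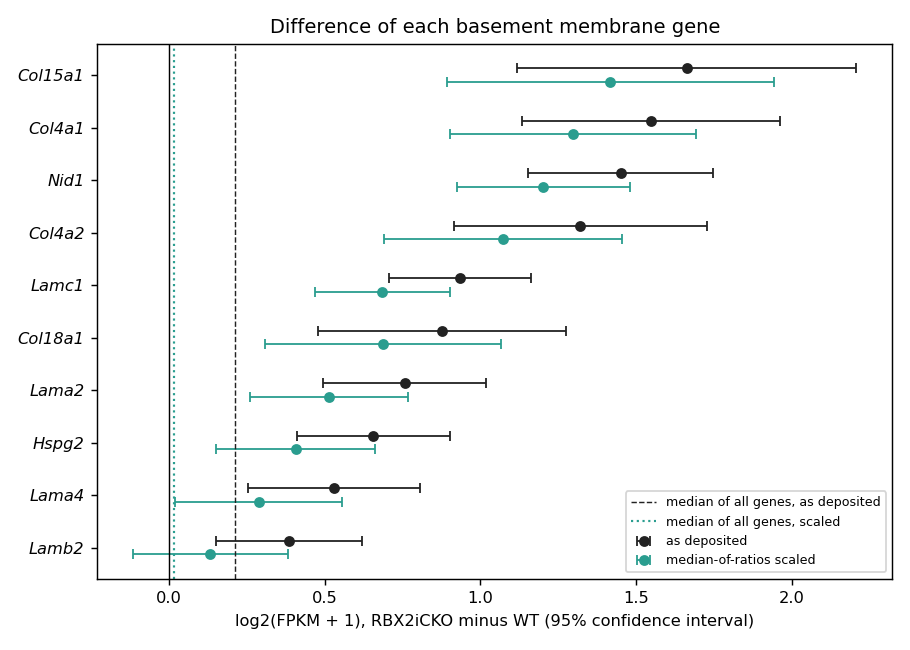
Log2(FPKM + 1) difference, RBX2iCKO minus WT (horizontal axis), of each of the 10 genes with its 95% confidence interval from limma, as deposited (black) and after median-of-ratios scaling (green); vertical lines mark 0 and the median of all genes tested, 0.21 as deposited and 0.02 scaled. Col15a1, Col4a1, Nid1 and Col4a2 lie highest, and the scaled interval of Lamb2 covers 0.

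The order of levels per gene length differed between the groups. In WT it ran Lamb2, Col4a1, Hspg2, Col4a2, Lamc1, Nid1, Col15a1, Lama4, Lama2 and Col18a1, from 68.7 FPKM ± 5.76 to 2.19 FPKM ± 0.685 (SD, n = 4). Neighbours in that order had library ranges that met, except below Lamb2, Lamc1, Nid1 and Lama2. In RBX2iCKO it ran Col4a1, Lamb2, Col4a2, Nid1, Hspg2, Lamc1, Col15a1, Lama2, Lama4 and Col18a1, from 124 FPKM ± 28.7 to 4.82 FPKM ± 1.01. There only Col15a1 and Lama4 were clear of the next gene below, so the first 7 genes had ranges that met from neighbour to neighbour.

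Within the groups, the 10 genes also varied together in part. Taken as deviations from the group mean over 8 libraries, their 45 pairs had a median Pearson r of 0.58, with 41 above 0. The highest was 0.99, for Col4a1 and Col4a2, and the lowest -0.53, for Lamb2 and Col18a1. Lamc1 followed Col15a1 with r = 0.96 and Lama2 with r = 0.89. These are descriptions over libraries that share depth and scaling.

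**Figure D4:**
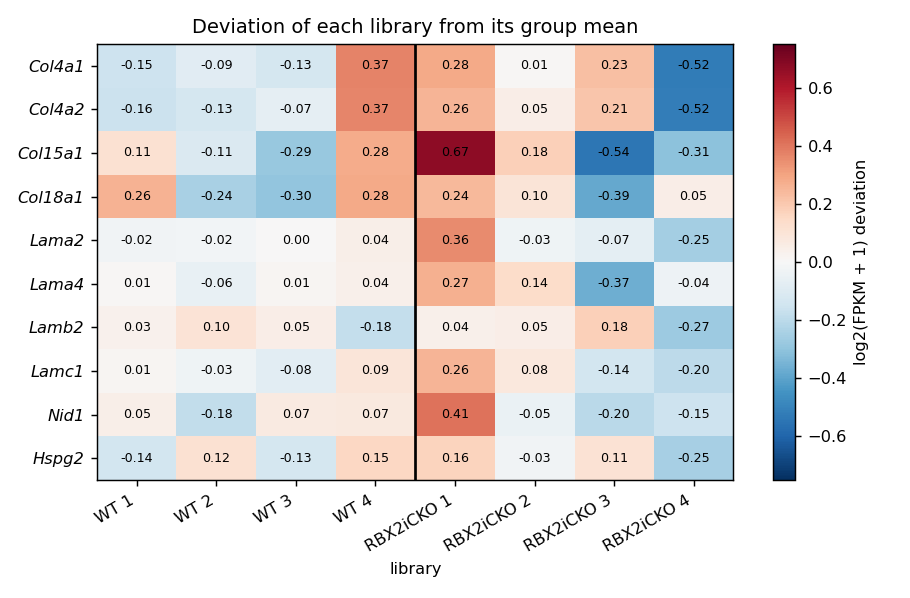
Deviation of each library (columns) from its group mean on the log2(FPKM + 1) scale (colour and printed value) for the 10 genes (rows); the vertical line divides WT from RBX2iCKO. RBX2iCKO replicate 1 is above its group mean for all 10 genes, by up to 0.67 for Col15a1, while replicate 3 is above it for Col4a1, Col4a2, Lamb2 and Hspg2 and below it for the other 6.

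RBX2iCKO replicate 1 lay above its group mean for all 10 genes, and replicate 4 lay below it for 9, all but Col18a1. Replicate 3 divided them: Col4a1 and Lamb2 were above by 0.23 and 0.18 on the log2 scale, while Col15a1, Col18a1 and Lama4 were below by values of -0.54, -0.39 and -0.37. Among 11100 protein-coding genes searched, those whose deviations were most like those of Col4a1 over the 8 libraries were Col4a2 (r = 0.993), Mrtfa (0.976), Ep400 (0.970), Dcaf12 (0.966) and Rtn4rl2 (0.962). For Lama2 they were Gusb (0.964), Plcg2 (0.956), Iqgap3 (0.951), Tlr7 (0.944) and Casp8ap2 (0.943). The WT deviations of Lama2 were small, from -0.025 to 0.043, against -0.252 to 0.357 in RBX2iCKO. Likeness to Lama2 therefore rests mostly on the knockout libraries. Iqgap3 averaged 0.195 FPKM in WT and 1.98 FPKM in RBX2iCKO, so it entered the search only through RBX2iCKO, and its WT deviations are those of a gene near 0. With 8 libraries and this many genes searched, values of this size are a ranking only.

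The sample titles carry numbers that fall into a lower series, WT replicates 1 and 2 and RBX2iCKO replicate 1, and a higher series, the other 5 libraries; the labels do not say what the numbers mark. Among those 5 libraries all 10 genes were again higher in RBX2iCKO, by 0.42 for Lama4 to 1.44 for Col15a1 on the log2 scale. With 2 WT and 3 knockout libraries, 5 of the 10 passed (Col4a1, Col15a1, Lama2, Lamc1 and Nid1), while 366 of all genes were called higher, against 4374 with 8 libraries. With the number series as a covariate all 10 passed. The share of all genes called higher with that covariate is not given here, and without it 33.5% were called higher.

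Other basement membrane components rose in part. Of 26 listed genes, 7 lay under the filter on low values and 2, Col4a3 and Col4a6, reached it only through RBX2iCKO. Of the other 17, 12 rose and 1, Lamb3, fell as deposited, where 33.5% of all genes were called higher. Their median log2 difference was 0.56, against 0.21 over all genes. After scaling 6 rose and 1 fell, where 8.78% of all genes were called higher, with a median of 0.38 against 0.02. Fbln1, encoding fibulin-1, a binding partner of laminin and nidogen, rose 2.41-fold, with 25.5 FPKM ± 5.34 in WT and 61.4 FPKM ± 9.70 in the knockout (SD, n = 4 each; limma adjusted p = 0.00146, and 0.00278 after scaling). Smoc2, a matricellular gene and by its mean over 8 libraries the most abundant of the list after Fbln1, was at 36.2 FPKM ± 4.41 and 43.4 FPKM ± 7.87 and did not pass (adjusted p = 0.171).

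Genes that fold, modify and crosslink collagen IV rose as deposited, and few kept their call after scaling. Of 12 such genes 10 rose and 0 fell, where 33.5% of all genes were called higher, with a median log2 difference of 0.45 against 0.21 over all genes. After scaling 2 rose, Sparc and Loxl2, where 8.78% of all genes were called higher, with a median of 0.21 against 0.02. Sparc, a collagen IV-binding chaperone of the matrix, was at 116, 89.9, 94.8 and 126 FPKM in WT and at 576, 396, 341 and 317 FPKM in RBX2iCKO. As in most of the 10 genes, RBX2iCKO replicate 1 was highest, and the groups were far apart. Sparc rose 3.82-fold (log2 1.90, SE 0.19, limma adjusted p = 0.000734, and 0.000828 after scaling), and Loxl2, a lysyl oxidase that crosslinks collagen IV, rose 3.07-fold (adjusted p = 0.00352, and 0.00737 after scaling). Serpinh1, the collagen chaperone HSP47, rose 1.51-fold, and Plod1 and Plod2, lysyl hydroxylases, 1.36-fold and 1.54-fold; these 3 passed as deposited (adjusted p = 0.0103, 0.00456 and 0.00755) but not after scaling (adjusted p = 0.109, 0.107 and 0.0736).

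Few genes listed with the receptors of laminin and collagen IV passed the test in either direction. Beside receptors, the list holds the sarcoglycans Sgca, Sgcb and Sgcd and dystrophin, Dmd, partners of the receptor dystroglycan. Of 14 listed genes 12 were tested, and 3 rose and 1 fell as deposited, where 33.5% of all genes were called higher and 3.52% lower. After scaling 1 rose and 3 fell, where 8.78% were called higher and 10.9% lower. Their median log2 differences, 0.20 as deposited and -0.02 scaled, stood against 0.21 and 0.02 over all genes. Itga7, the alpha subunit of the main laminin receptor of muscle, fell 1.30-fold, with 46.6 FPKM ± 4.49 in WT and 35.97 FPKM ± 2.06 in the knockout (SD, n = 4 each; limma adjusted p = 0.0106, and 0.00285 after scaling). Ddr1, a collagen receptor kinase, rose 1.61-fold (adjusted p = 0.00309, and 0.0225 after scaling). Itgb1, the partner of Itga7, and Itga1 rose 1.24-fold and 1.38-fold as deposited (adjusted p = 0.0303 and 0.0482). Neither passed after scaling, and leaving out single libraries ended these calls in 6 and 7 of 8 fits, which for Itgb1 spared those without RBX2iCKO replicates 1 and 3 and for Itga1 the fit without RBX2iCKO replicate 3. Sgca and Sgcb, sarcoglycans of the dystroglycan complex, fell after scaling (log2 -0.49 and -0.35, adjusted p = 0.00869 and 0.00583) and not as deposited, and are named for that count, after their values were seen. Bcam, a laminin alpha-5 receptor, was at 105 FPKM ± 4.01 and 111 FPKM ± 12.6 and did not pass (adjusted p = 0.469).

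Most proteases that cut basement membrane proteins, and their inhibitors, rose as deposited. Of 13 listed genes 12 were tested, and 9 rose and 0 fell, where 33.5% of all genes were called higher. After scaling 5 rose and 1 fell (Mmp15, named for that, limma adjusted p = 0.0430), where 8.78% were called higher and 10.9% lower. The median log2 differences were 0.75 as deposited and 0.51 scaled, against 0.21 and 0.02 over all genes. Mmp2, a gelatinase that degrades collagen IV, was at 27.4, 18.5, 19.9 and 24.8 FPKM in WT and at 163, 111, 102 and 85.1 FPKM in RBX2iCKO. The groups were far apart, and RBX2iCKO replicate 1 was again highest. Mmp2 rose 5.09-fold (log2 2.27, SE 0.19, limma adjusted p = 0.000409, and 0.000494 after scaling), and Mmp14, the membrane protease that activates it, 4.29-fold (adjusted p = 0.000515, and 0.000661 after scaling). Timp2, an inhibitor that also takes part in this activation, rose 2.10-fold, and Bmp1, which processes procollagens, laminin and perlecan, 2.20-fold (adjusted p = 0.00172 and 0.000771). Ctsl, a cathepsin that releases endostatin from collagen XVIII, rose 1.59-fold as deposited (adjusted p = 0.0147), and scaling ended the call (adjusted p = 0.0840).

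Enzymes that make the heparan sulfate chains of perlecan lay near the median of all genes. Of 14 listed genes 12 were tested, and 4 rose and 0 fell as deposited, a share near the 33.5% of all genes called higher. After scaling 2 rose, where 8.78% of all genes were called higher. The median log2 differences were 0.18 and -0.03, against 0.21 and 0.02 over all genes. Xylt2, a xylosyltransferase that starts the chain, rose 1.66-fold (limma adjusted p = 0.00252, and 0.0159 after scaling) and Ndst2, an N-deacetylase and sulfotransferase, 1.59-fold (adjusted p = 0.00704, and 0.0404 after scaling). Hs2st1 and Ext1 rose 1.49-fold each as deposited, and scaling ended both calls (adjusted p = 0.113 and 0.216); Ext1 also lost its call without WT replicates 1 or 4 or RBX2iCKO replicates 1 or 2 (adjusted p from 0.0576 to 0.0615).

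**Figure D5:**
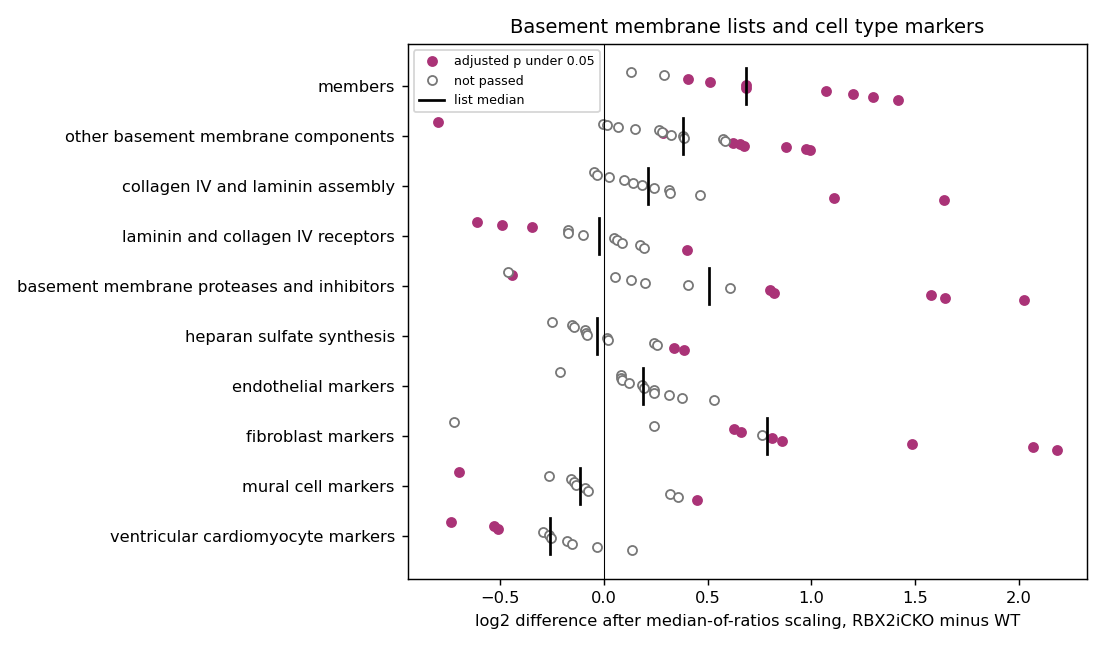
Log2 difference after median-of-ratios scaling, RBX2iCKO minus WT (horizontal axis), of the 10 genes, 5 related gene lists and 4 lists of cell type markers (vertical axis); filled points have a limma adjusted p under 0.05, open points did not pass, and bars are list medians. The 10 genes have a median of 0.69, fibroblast markers 0.79, endothelial markers 0.19 and mural cell markers -0.11. The row of other components includes Col4a3 (filled) and Col4a6 (open), which reached the filter only through RBX2iCKO. Its median is 0.38 with or without them.

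Collagen IV, laminins, nidogen and perlecan are made by endothelial cells, fibroblasts, mural cells and cardiomyocytes, and in these bulk libraries more cells of a type and more RNA per cell cannot be told apart. Most fibroblast markers were higher in RBX2iCKO. As deposited 9 of 10 rose and 0 fell, and 7 rose after scaling, where 33.5% and 8.78% of all genes were called higher. Their summed level was 352 to 540 FPKM in WT against 768 to 1313 FPKM in RBX2iCKO. Dcn was its largest part, with means of 258 and 565 FPKM. Scara5, named after its values were seen, had a lower mean in RBX2iCKO, 7.26 FPKM against 10.1 FPKM in WT. It did not pass (limma adjusted p = 0.118, and 0.0556 after scaling). Pdgfra, the receptor that defines fibroblasts, rose 2.0-fold (limma adjusted p = 0.00317, and 0.0105 after scaling). Of 12 endothelial markers 7 rose and 0 fell as deposited and 0 passed after scaling, set against the same 33.5% and 8.78%, with sums of 227 to 295 FPKM in WT and 306 to 346 FPKM in RBX2iCKO. Of 10 mural cell markers 2 rose and 1 fell as deposited, where 33.5% of all genes were called higher and 3.52% lower, and 1 rose and 1 fell after scaling, where the shares were 8.78% and 10.9%. Pdgfrb rose 1.66-fold (limma adjusted p = 0.00541, and 0.0300 after scaling) and Cspg4 1.57-fold as deposited (adjusted p = 0.00717, and 0.0557 after scaling). Abcc9 fell 1.37-fold (adjusted p = 0.00881, and 0.00268 after scaling). The sums of the 10 mural markers overlapped, at 302 to 389 FPKM in WT against 248 to 411 FPKM in RBX2iCKO. Rgs5 and Abcc9 were their largest parts, with means of 153 and 74.6 FPKM in WT. Of 10 ventricular cardiomyocyte markers 1 rose and 2 fell as deposited, and 0 rose and 3 fell after scaling, set against the same shares, with sums of 26646 to 28940 FPKM in WT and 22714 to 28169 FPKM in RBX2iCKO. None of these markers was at 0 in any library, and their part in the rise of the 10 genes was not tested.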

How the data were processed

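PolyA RNA of 8 tamoxifen-treated mouse ventricles, 4 WT and 4 RBX2iCKO by the genotype label, was analysed from 1 table in which the authors deposited FPKM for 35275 genes. Reads were placed on mm10, per the submitters' processing notes; which aligner, counter, annotation and strand setting made the table is not given in the sources used here. Symbols and coordinates are from GENCODE M21, which held 34490 of the identifiers. FPKM are shares of a library without an external standard, so a change in abundant transcripts moves all other genes.

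Differences are on the log2(FPKM + 1) scale, which understates those of low genes; folds are ratios of mean FPKM. R 4.3.3 with limma 3.58.1 gave two-sided tests (lmFit, eBayes with trend) over the 13050 genes whose mean FPKM reached 0.5, with Benjamini-Hochberg adjustment over all of them and a threshold of 0.05. The scaled fit divided each library by its median-of-ratios factor, 0.859 to 0.945 in WT and 1.072 to 1.118 in RBX2iCKO. Ratios were compared by exact permutation over 70 assignments. Whole fragments, within a tolerance of 0.01 and with a gene length inferred from the FPKM themselves rather than annotated, were recovered for 13044 genes. limma voom on these fragments called 4483 genes higher and 468 lower. Intervals cover counting and library spread only as far as these 8 libraries show it. Library tables used scipy 1.17.1, numpy 2.4.6 and pandas 2.3.3 in Python 3.11.15, plots used matplotlib 3.10.9, and the fit was tested on simulated data.

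The 10 genes, the gene lists and the tests were chosen with earlier results of these data known. Named genes were the 10, Rnf7, the genes of the ratios, from each list up to 4 with the smallest p and the 2 of highest mean FPKM, and the 5 protein-coding genes (mean FPKM 1 or more) most like Col4a1 and Lama2; others are said to be chosen after their values were seen. Col4a6 is named to complete its family, and Dcn, Pecam1, Myh6, Pdgfra and Esr1 to describe the tissue and the transgene.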

Additional observations from a re-analysis of the deposited data

Results flagged for a closer look

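Over 186 groups of 4 libraries, 1 library lay far from the rest of its group in 9; chance alone flags about 1 in 20, or 9.3. In WT, replicate 4 was highest for Col4a1, at 52.8 FPKM against 36.4 to 38.2 FPKM, and for Col4a2, at 42.9 FPKM against 29.4 to 31.5 FPKM. In WT, replicate 2 was lowest for Nid1, at 20.4 FPKM against 24.0 to 24.5 FPKM. Podoplanin, Pdpn, had 1 WT library at 1.93 FPKM against 1.25 to 1.34 FPKM.

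In RBX2iCKO, replicate 3 was highest for Lama5, at 54.2 FPKM against 16.6 to 19.99 FPKM, for the Lama5/Lama4 ratio, at 3.005 against 0.699 to 0.739, and for the Hspg2/Lamc1 ratio, at 1.245 against 0.969 to 1.008. The same library was lowest for Nid2, at 5.41 FPKM against 7.61 to 7.97 FPKM. Bmp1 had 1 RBX2iCKO library at 16.7 FPKM against 20.2 to 20.9 FPKM.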

How the results depend on the processing

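All 10 genes kept a positive difference under every setting tried, and Col4a1, Col15a1, Lama2, Lamc1 and Nid1 passed in all 20 other settings, 8 of them single-library omissions as deposited, and in all 8 scaled fits without 1 library. No paired analysis was possible because the replicate numbers follow the order of deposition and do not tie WT to RBX2iCKO libraries.

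In the counts below, receptors stand for the whole receptor list, with sarcoglycans and Dmd, and proteases for the list of proteases and inhibitors. Median-of-ratios scaling gave 1146 higher and 1419 lower genes, 0.29 for Lama4 and 0.13 for Lamb2. Higher were then 7 other components (here counted with Col4a3 and Col4a6), 2 assembly genes, 1 receptor, 5 proteases or inhibitors and 2 heparan sulfate enzymes. Lower were 3 receptors and 1 protease. Quantile normalization gave 865 and 1242 genes, 0.33 for Lama4, 0.25 for Lamb2, 7 other components, 4 assembly genes, 1 receptor and 1 heparan sulfate enzyme higher, 3 receptors lower, and Cnp at -0.000334. Removing mitochondrial-encoded genes gave 2079 and 711 genes, 0.27 for Lamb2, and 1 receptor higher and 3 lower. Without a filter 1 receptor was higher; array weights gave 5 and 2 receptors, and the title number covariate 2 lower. The cause of these shifts was not tested.

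Within the higher series of title numbers the counts were 366 and 67 genes, 5 of the 10 genes, 4 and 0 other components, 1 assembly gene, 1 and 0 receptors, 4 proteases and 0 heparan sulfate enzymes, from 5 libraries. Col4a2 (1.09), Col18a1 (0.80), Lama4 (0.42), Lamb2 (0.44) and Hspg2 (0.59) no longer passed, and the Lamb1/Lamb2 log2 difference was -0.00464.

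Leaving out 1 library gave 2897 to 4375 higher and 328 to 451 lower genes, the lowest higher count without WT replicate 2, 9 to 10 of the 10 genes, 1 to 4 receptors higher and 1 to 2 lower, 0.33 to 0.48 for Lamb2, and at most 1.01 for Col18a1, 0.65 for Lama4 and 0.74 for Hspg2. After scaling, chosen after seeing the data, it gave 670 to 1363 higher and 975 to 1459 lower genes, 6 to 8 of the 10 genes, 0.58 to 0.81 for Col18a1, 0.20 to 0.41 for Lama4, 0.057 to 0.21 for Lamb2 and 0.35 to 0.48 for Hspg2. Depth limits Col18a1 most, at 197 to 751 fragments a library; with 4 libraries a group, ratios cannot reach an exact p below 0.0286.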

Other observations

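A few further basement membrane genes are named after their values were seen. Frem1, of the Fraser complex that anchors epithelium, lay under the filter on low values, at 0.0513 to 0.0563 FPKM in WT and 0.219 to 0.842 FPKM in RBX2iCKO, and was not tested. Hmcn1, encoding hemicentin-1, rose from 2.15 FPKM ± 0.242 to 3.36 FPKM ± 0.175 (SD, n = 4 each; limma adjusted p = 0.00397, and 0.0364 after scaling). Fbln2, a nidogen- and laminin-binding fibulin, rose from 18.8 FPKM ± 3.28 to 35.9 FPKM ± 5.79 (adjusted p = 0.00331, and 0.00937 after scaling).

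RBX2iCKO replicate 3 was also the highest library for agrin, another basement membrane heparan sulfate proteoglycan. Agrn was at 19.6 FPKM there and at 9.35 to 10.6 FPKM in the other knockout libraries, against 5.28 to 7.28 FPKM in WT. For Timp1, a metalloprotease inhibitor, that library was at 22.2 FPKM against 6.38 to 9.58 FPKM in the other knockout libraries and 1.07 to 4.16 FPKM in WT.

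Other cell types were measured through their markers. Of 8 macrophage markers 3 rose and 0 fell as deposited and 1 rose after scaling, shares near the 33.5% and 8.78% of all genes called higher, with sums of 101 to 141 FPKM in WT and 99.2 to 235 FPKM in RBX2iCKO. RBX2iCKO replicate 3 was lowest for Cd163, at 0.323 FPKM. The other knockout libraries were at 5.15 to 6.23 FPKM and WT at 3.68 to 6.63 FPKM. It was also lowest for Mrc1, at 1.23 FPKM against 10.1 to 12.7 FPKM and 2.31 to 10.4 FPKM. For Adgre1 it was the highest, at 12.8 FPKM against 6.81 to 11.4 FPKM and 3.70 to 7.07 FPKM. Among knockout libraries it was lowest for C1qa, C1qb and Csf1r, and neither lowest nor highest for Cd68 and Fcgr1. This comparison of single markers was chosen after their values were seen. Of 4 lymphatic endothelial markers 2 rose, and 1 after scaling, set against the same shares. Of 5 Schwann cell markers 4 were tested and 1 rose, with 0 after scaling, and none of the 4 mesothelial or 3 adipocyte markers tested passed.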
